A study of Oryzias latipes with 6 samples.

Results

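The 6 mRNAs described here are those that the medaka mitochondrial genome encodes for the last steps of respiration: CYTB of complex III, COX1, COX2 and COX3 of complex IV, and ATP6 and ATP8 of the ATP synthase. They were chosen by name, as the rows so labelled on the mitochondrial chromosome, and are 6 of 13 mitochondrial mRNA rows and of 24365 gene IDs in all. Each row is called an mRNA here, although rows that overlap, such as ATP8 and ATP6, need not be separate mRNAs. RNA-seq compared the apical domain of gill filaments, the growing tip, with their central domain, where differentiated cells lie and which served as the comparison. Both came from adult medaka (Oryzias latipes) of the Cab strain. The apical group has the RNA samples apical A (1 library) and apical B (2 libraries), the central group central A (2 libraries) and central B (1 library). About 50 apical and 30 central domains were cut by hand from the gills of 5 fish of 4 to 6 months, so that each RNA sample mixes cell types, and no source used here says which fish it holds. The paper calls the replicates of each domain biological, whereas the labels put 2 libraries of each domain under the same letter. Where an RNA sample has 2 libraries their mean was taken, which leaves n = 2 RNA samples per domain. Because A and B may not be separate fish, the p-values cover only how far these RNA samples differ, and that spread may be technical.

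Mitochondrial respiration passes electrons along a chain of membrane complexes and uses the resulting proton gradient to make ATP. Cytochrome b (CYTB) is the catalytic core of complex III, COX1 to COX3 are the core of cytochrome c oxidase, which hands the electrons to oxygen, and ATP6 with ATP8 belongs to the membrane part of the ATP synthase. In vertebrates these mRNAs are cut from long precursor RNAs, mostly at the tRNA genes that lie between them, and receive poly(A) tails in the mitochondrion, which is why a poly(A)-selected library can hold them. In the gill, ionocytes (mitochondria-rich cells) are known for their many mitochondria, which supply the pumps that move ions.

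The values are FPKM, fragments scaled to the length of the row and to the mapped fragments of the library, as Cufflinks gave them. From Cufflinks' intervals, between 24400000 and 79100000 mapped fragments per library were computed, of which the 6 rows held 0.910% to 1.36%. The same intervals show that Cufflinks subtracted a fragment length of 120.5 nt in apical A and 121.4 nt in library 1 of apical B, and of 211 to 213 nt in library 2 of apical B and in the 3 central libraries. A longer subtraction raises the FPKM of a short row. The mitochondrial mRNAs were therefore also computed as fragments per kb of annotated length, scaled to the mapped fragments, where this subtraction is undone. This covers their levels, domain differences, ratios and shares. Nuclear rows, shares of all tested rows, shifts over the libraries and fits without an RNA sample are given in FPKM only. For domain differences as fragments per kb, the factors between libraries and all other rows stayed as FPKM. Tissue markers gave limited help, because rows of nuclear genes carry names that may not fit the reads in them. The nuclear rows stand at positions of the genome assembly ASM223467v1, whereas the authors aligned the reads to the assembly oryLat2. What this does to the values of the nuclear rows was not tested. Whether the mitochondrial rows stand at the same positions in oryLat2 was not tested either. Of 6 ionocyte rows, slc12a2 and foxi3b were listed at 0 in all 6 libraries, whereas foxi1, slc9a3.2, atp1b3a and, at under 1 FPKM, cftr were read in each.

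All 6 rows have the same start and end in the files and in the RefSeq annotation of ASM223467v1, and each is a single coding exon. COX1 (ENSORLG00000021763) runs from 5455 to 7011 of the mitochondrial chromosome (1557 bp) and COX2 (ENSORLG00000021766) from 7167 to 7857 (691 bp). ATP8 (ENSORLG00000021768) covers 7932 to 8099 (168 bp) and shares its last 10 bases with ATP6 (ENSORLG00000021769), which covers 8090 to 8772 (683 bp). COX3 (ENSORLG00000021770) starts at the very next base and ends at 9556 (784 bp), and CYTB (ENSORLG00000021782) lies apart from the others, from 14359 to 15499 (1141 bp). Thus ATP8, ATP6 and COX3 form a run with no row between them, while COX1, COX2 and CYTB are flanked on both sides by unnamed rows of 68 to 73 bp, at most 3 bases away. The COX2, COX3 and CYTB rows end 1 base after their last whole codon and ATP6 ends 2 bases after it, whereas COX1 and ATP8 consist of whole codons. Vertebrate mitochondria complete such cut-off stop codons with the poly(A) tail.

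COX3 was the most abundant of the 13 mitochondrial mRNAs in all 6 libraries, followed in each of them by CYTB, COX1 and COX2. The ATP6 row ranked 8 to 10 and the ATP8 row 13 in each library. As the ATP8 row is short and overlaps ATP6, its rank is not read as the level of an mRNA. COX3 stood at 6089 FPKM in apical A, at 6612 and 7571 FPKM in libraries 1 and 2 of apical B, and at 6483 and 8371 FPKM in libraries 1 and 2 of central A, against 5914 FPKM in central B. The 2 domains overlapped, with the highest and the lowest library both central. Per RNA sample this gives 6590 ± 709 FPKM in the apical domain and 6671 ± 1070 FPKM in the central domain (SD, n = 2 each). COX3 alone made up 38.0% to 41.7% of the FPKM of the 13 mitochondrial mRNAs.

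**Figure D1:**
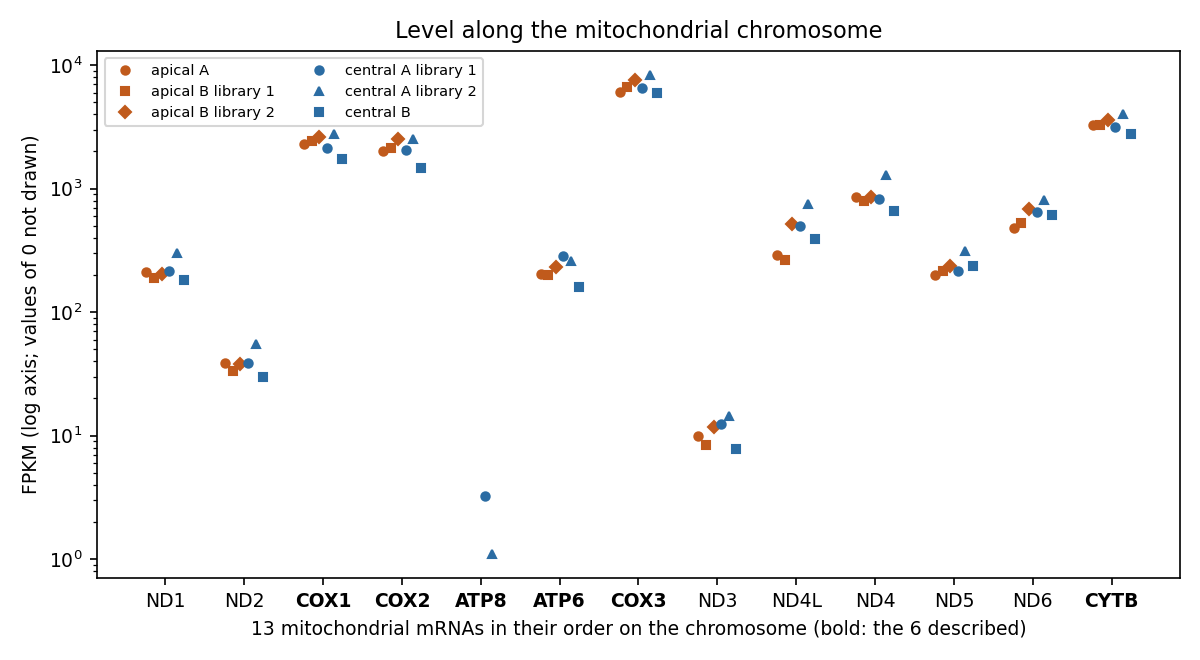
FPKM of the 13 mitochondrial mRNAs (y axis, log scale) in their order on the chromosome (x axis), with 1 point per library, apical in orange and central in blue; values of 0 are not drawn. COX3, CYTB, COX1 and COX2 lie above every complex I (ND) mRNA, whose highest value is 1301 FPKM, while ATP6 lies between 159 and 284 FPKM and ATP8 is drawn in only 2 libraries.

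CYTB came next in the order. It had 3305 FPKM in apical A, 3303 and 3596 FPKM in the libraries of apical B, 3135 and 4004 FPKM in those of central A, but 2781 FPKM in central B. The apical libraries thus lay inside the central range. The means were 3377 ± 102 FPKM in the apical domain and 3175 ± 557 FPKM in the central domain (SD, n = 2 each).

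COX1, the subunit that carries the oxygen-reducing centre, had 2293 FPKM in apical A, 2439 and 2626 FPKM in apical B, 2132 and 2760 FPKM in central A and only 1731 FPKM in central B. COX2, which takes up electrons from cytochrome c, had 2035 FPKM in apical A, 2137 and 2515 FPKM in apical B, 2071 and 2537 FPKM in central A and only 1471 FPKM in central B. For both subunits the lowest library was central B and the highest was library 2 of central A, so that in FPKM the apical libraries again lay between central ones. On the scale of fragments per kb, COX2 was highest in library 1 of apical B, at 1765 against 1762 in library 2 of central A. COX1 averaged 2413 ± 170 FPKM in the apical domain and 2089 ± 506 FPKM in the central domain (SD, n = 2 each). For COX2 the means were 2181 ± 206 FPKM in the apical domain and 1888 ± 589 FPKM in the central domain (SD, n = 2 each).

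The row of ATP6, the proton channel subunit of the ATP synthase, had a far lower FPKM than the other 4 of these mRNAs. This row overlaps that of ATP8, and whether the overlap affects its FPKM was not tested. It had 203 FPKM in apical A, 199 and 233 FPKM in apical B, 284 and 260 FPKM in central A and only 159 FPKM in central B, with means of 209 ± 8.84 FPKM in the apical domain and 215 ± 79.7 FPKM in the central domain (SD, n = 2 each). Within a library, COX2 exceeded it 7.30- to 10.8-fold. ATP6 and COX3 abut on the chromosome, and COX3 is the most abundant of the 13 mRNAs.

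Almost no fragments were assigned to the ATP8 row. It was listed at 0 in the 3 apical libraries and in central B. In libraries 1 and 2 of central A it had 3.26 and 1.10 FPKM, with intervals that start at 0. By those intervals the values rest on 1.31 and 0.494 fragments. These numbers are rough, since the row overlaps ATP6, whose own interval gave fewer fragments than its length did. No fold change is given. Even as a count, a 0 would allow up to 3 fragments in a library, and a 0 listed for a row this short may not be a count. The row is shorter than the 211 to 213 nt that Cufflinks subtracted in 4 libraries but longer than that of apical A and library 1 of apical B, where it was also listed at 0. All other rows under 200 bp on the mitochondrial chromosome, 22 in number, were listed at 0 in every library. The ATP8 values thus do not show that mRNA with the ATP8 sequence was scarce.

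The order of the levels can be read with these spreads. Library values of COX3 and CYTB did not overlap, nor did those of COX2 and ATP6. CYTB and COX1 were separated only just, the lowest CYTB library at 2781 and the highest COX1 library at 2760 FPKM, and they overlapped as fragments per kb. COX1 and COX2 overlapped on both scales, although COX1 was above COX2 within each of the 6 libraries on both. As fragments per kb the order of the 5 mRNAs was also the same in each library.

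**Figure D2:**
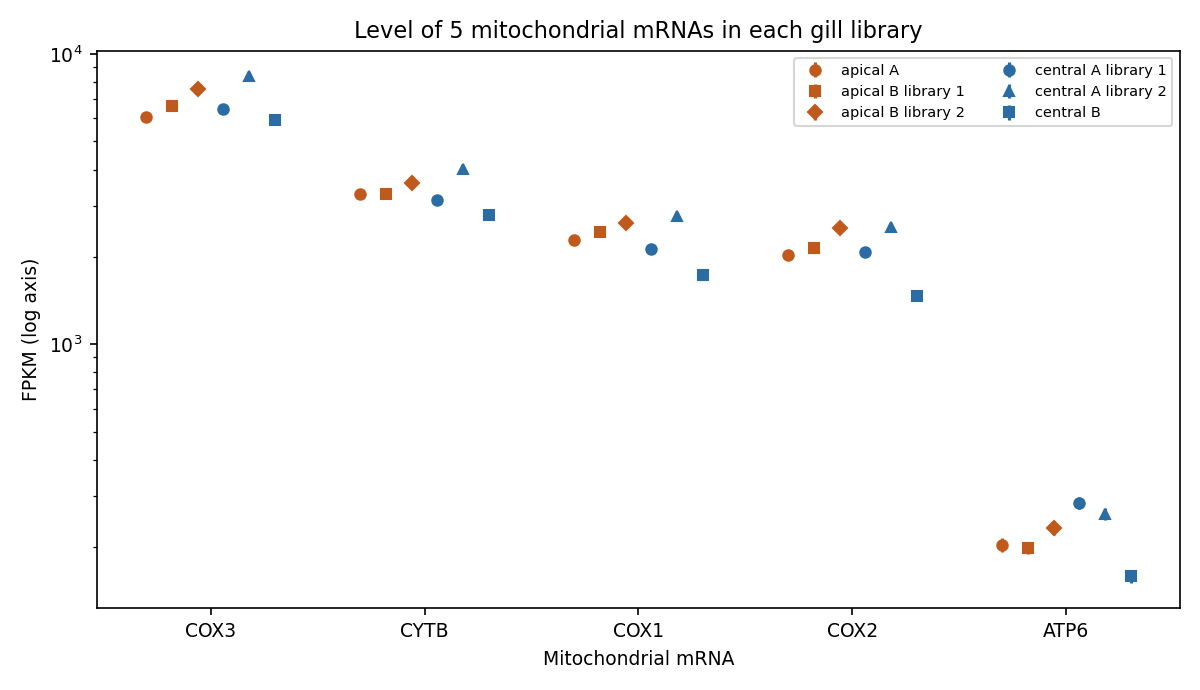
FPKM (y axis, log scale) of COX3, CYTB, COX1, COX2 and ATP6 in each of the 6 libraries, apical in orange on the left of each group and central in blue on the right; bars are Cufflinks' 95% intervals and are mostly smaller than the points. The apical points of COX3, CYTB, COX1 and COX2 lie between central B, the lowest library, and library 2 of central A, the highest.

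The intervals were small beside the differences between libraries for COX1, COX2, COX3 and CYTB. Cufflinks' interval reached 0.325% to 1.19% to either side of the value for COX1, COX2, COX3 and CYTB, and 4.59% to 5.61% for ATP6, which overlaps ATP8. Yet library 2 of central A exceeded library 1 of the same RNA by 1.29-fold for COX3, 1.28-fold for CYTB, 1.30-fold for COX1 and 1.23-fold for COX2, while ATP6 was at 0.915 of library 1. In apical B, library 2 exceeded library 1 by 1.08- to 1.18-fold for the 5 mRNAs. As fragments per kb these apical B ratios were 0.980 to 1.01, and those of central A stayed at 0.917 to 1.30. The 2 libraries of apical B thus differ in FPKM mainly by the fragment length subtracted, and the 2 of central A, for which that length is alike, do not.

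The 5 mRNAs moved together from library to library. On a log2 scale of scaled FPKM, relative to each mRNA's mean over the 6 libraries, all 5 were lowest in central B. COX1, COX3 and CYTB were highest in library 2 of central A, and COX2 was at 0.23 both there and in library 2 of apical B. On this scale central B lay at -0.20 for COX3, -0.26 for CYTB, -0.41 for COX1, -0.46 for ATP6 and -0.51 for COX2. ATP6 departed from the rest in library 1 of central A, at 0.38 against -0.10 to -0.01 for the other 4.

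**Figure D3:**
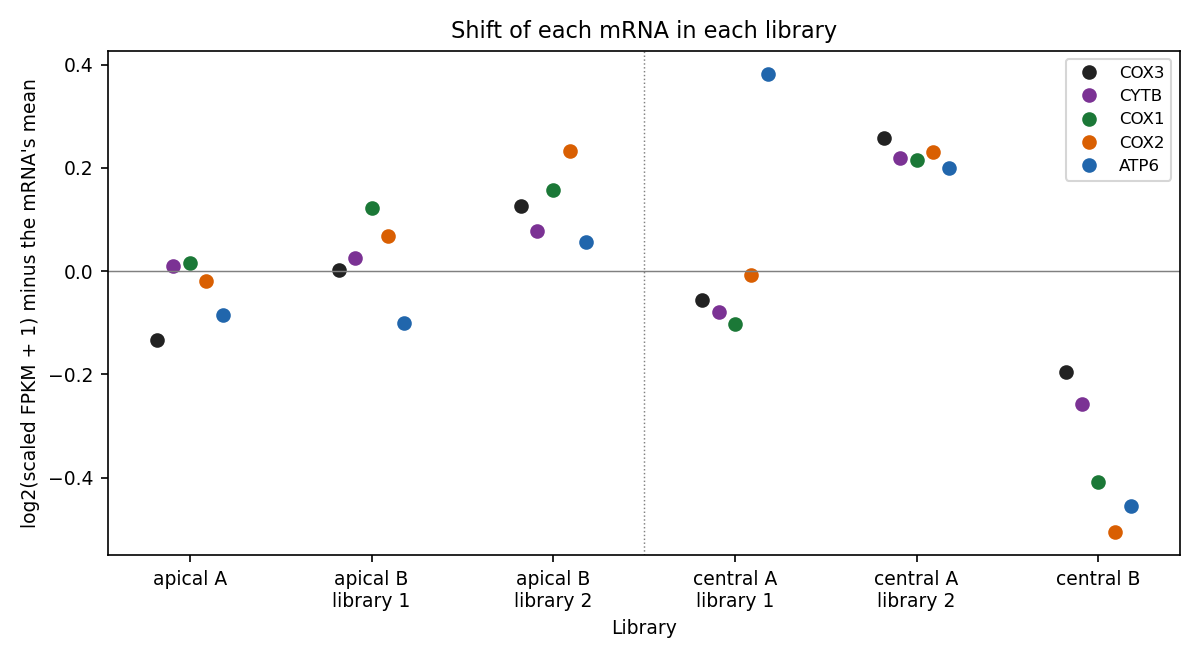
Shift of each mRNA in each library, as log2(FPKM + 1) after scaling minus the mean of that mRNA over 6 libraries (y axis); libraries are on the x axis, apical left of the dotted line and central right of it. In central B all 5 mRNAs lie between -0.51 and -0.20, and in library 2 of central A all lie between 0.20 and 0.26.

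The comparison of the domains asks whether the mRNAs of the respiratory chain differ between the growing and the differentiated part of the filament. Of the 5 rows high enough to be tested, 0 were higher and 0 were lower in the apical libraries by limma's adjusted p (threshold 0.05), and 0 by the unadjusted p. Over all 2984 tested rows, 0.168% passed the adjusted threshold and 7.47% the unadjusted one. Nearly all of these rows are of nuclear genes, whose names may not fit the reads in them. Shares of tested rows, and the scaling between libraries, therefore rest on rows and not on surely named genes. In 0 of the 5 did every apical library lie below every central one, as it did in 13.9% of the tested rows, and in 0 did it lie above, as in 9.68%. ATP8 did not reach the minimum of 2 FPKM for the sum of the domain means. The largest differences were those of COX2 and COX1. COX2 had a log2 difference (apical minus central) of 0.26 with a 95% interval from -0.50 to 1.03 (adjusted p = 0.805 from limma), and COX1 one of 0.25 with an interval from -0.40 to 0.90 (adjusted p = 0.779 from limma). For CYTB the log2 difference was 0.12 (interval -0.43 to 0.68), for ATP6 0.03 (interval -0.82 to 0.88) and for COX3 0.01 (interval -0.54 to 0.57). The intervals leave room for differences of either sign, so equal levels in the 2 domains are not shown. In bulk tissue, moreover, fewer cells of a type and less RNA per cell cannot be told apart.

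As fragments per kb the log2 differences were 0.45 for COX2, 0.32 for COX1, 0.23 for CYTB, 0.22 for ATP6 and 0.17 for COX3, all with intervals that include 0 and adjusted p from limma of at least 0.742. The 2 libraries with the shorter subtracted fragment length are both apical, so in FPKM the subtracted length is partly bound up with the domain. In FPKM, moreover, the direction of all but COX1 turned when certain single RNA samples were left out. Without central B, the log2 difference was 0.021 for COX1, -0.046 for COX2, -0.039 for CYTB, -0.14 for COX3 and -0.34 for ATP6. Without central A it was 0.49, 0.57, 0.29, 0.16 and 0.40 in the same order. Without apical B, COX3 turned to -0.086 and ATP6 to -0.0025.

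**Figure D4:**
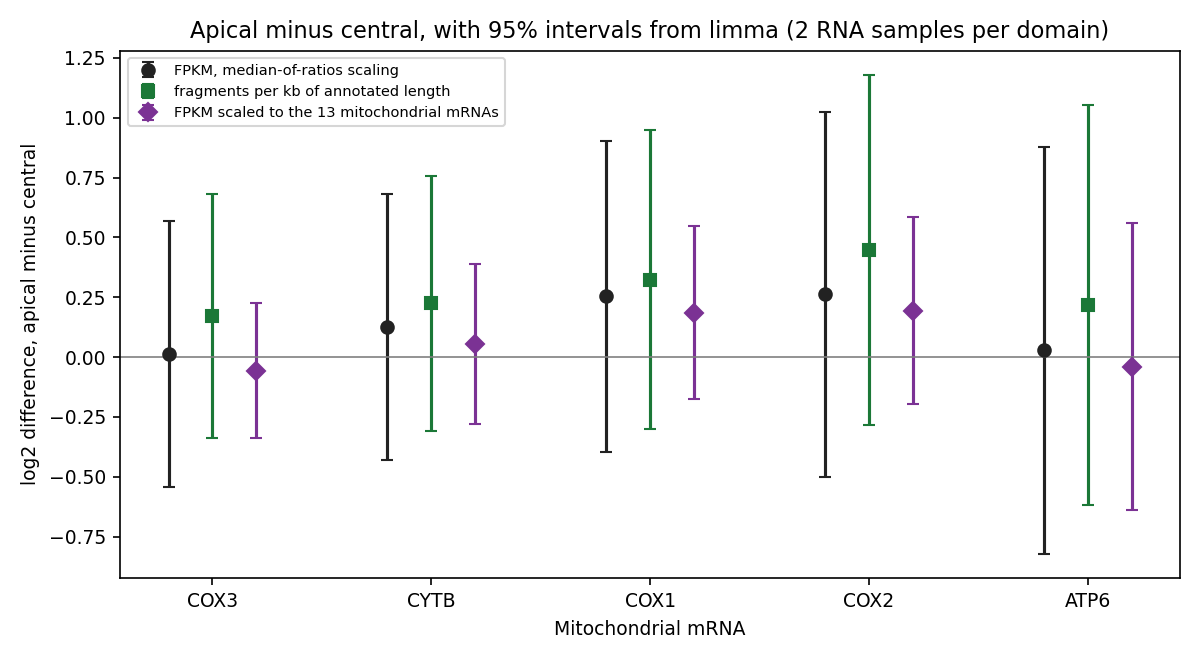
Log2 difference between the domains, apical minus central (y axis), for 5 mitochondrial mRNAs on 3 scales; points are limma estimates and bars their 95% intervals, with 2 RNA samples per domain. Every interval crosses 0, and the estimates as fragments per kb (0.17 to 0.45) lie above those of FPKM (0.01 to 0.26).

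Ratios between mRNAs of the same library do not depend on the scaling between libraries. COX3 had 2.66, 2.71 and 2.88 times the FPKM of COX1 in apical A and the libraries of apical B, against 3.04 and 3.03 times in central A and 3.42 times in central B. The domains did not overlap. Per RNA sample the ratio was 2.73 ± 0.0989 in the apical domain and 3.23 ± 0.269 in the central domain (SD, n = 2 each), or 0.846-fold (two-sided exact permutation p = 0.333, the smallest that 2 samples against 2 can give). As fragments per kb the libraries still did not overlap, with 2.44, 2.49 and 2.44 in the apical and 2.57, 2.56 and 2.89 in the central libraries.

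For CYTB over COX1 the libraries did not overlap in FPKM, at 1.44, 1.35 and 1.37 in apical A and apical B against 1.47 and 1.45 in central A and 1.61 in central B. The nearest libraries of the 2 domains, at 1.441 in apical A and 1.451 in library 2 of central A, lie within the Cufflinks intervals of CYTB and COX1 in apical A, which reach 0.698% and 0.705% to either side. Nor did the libraries overlap for ATP6 over COX1, at 0.0886, 0.0815 and 0.0886 in the apical and 0.133, 0.0941 and 0.0918 in the central libraries. For ATP6 the nearest libraries of the 2 domains, at 0.0886 and 0.0918, are closer than the 4.59% to 5.61% of its Cufflinks intervals. As fragments per kb, however, the domains overlapped in both ratios. COX2 over COX1 overlapped on either scale, from 0.876 to 0.958 in the apical and from 0.850 to 0.971 in the central libraries in FPKM. Thus 3 of the 4 other tested mRNAs had a lower ratio to COX1 in every apical library than in any central library, as did 15.2% of the tested rows, and 0 had a higher one, as did 0.805%. These ratios share their denominator and are not separate results, and each exact permutation p over the RNA samples was at least 0.333.

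As a share of the 13 mitochondrial mRNAs, COX1 had 14.3%, 14.6% and 13.8% of the FPKM in apical A and the libraries of apical B, against 12.9% and 12.9% in central A and 12.2% in central B. COX2 had 12.7%, 12.8% and 13.2% in the same apical libraries, against 12.5% and 11.8% in central A and 10.4% in central B. Both shares were higher in every apical library than in any central one, in FPKM and as fragments per kb. Relative to the same sum, 3.25% of the 2984 tested rows had every apical library above every central one, and 7.61%, with 0 of the 5 among them, had every apical library below. The shares of COX3, CYTB and ATP6 overlapped between the domains, with 38.0% to 39.7% in apical and 39.0% to 41.7% in central libraries for COX3.

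The 6 rows together held 87.0%, 87.8% and 86.7% of the FPKM of the 13 mRNAs in apical A and apical B, against 85.2% and 83.5% in central A and 84.99% in central B. The mean was 87.1% ± 0.183 in the apical domain and 84.7% ± 0.449 in the central domain (SD, n = 2 each), a difference of 2.45 percentage points. Its two-sided exact permutation p was 0.333, the smallest that 2 samples against 2 can give. The 2 libraries of apical B, and those of central A, differ by more than these SDs. The shares of COX1 and COX2 are parts of this share and not separate results. As fragments per kb the difference between the domains was 1.49 percentage points, with 87.5% to 88.3% in the apical and 85.3% to 86.9% in the central libraries. The other 7 mRNAs encode subunits of complex I. All 7 were tested and limma's adjusted threshold was passed by 0, with log2 differences in FPKM from -0.56 for ND4L to 0.03 for ND4. For ND4L, a row of 297 bp, the direction turned as fragments per kb, with 174, 158 and 148 in apical A and apical B against 142 and 216 in central A and 116 in central B, which overlap.

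**Figure D5:**
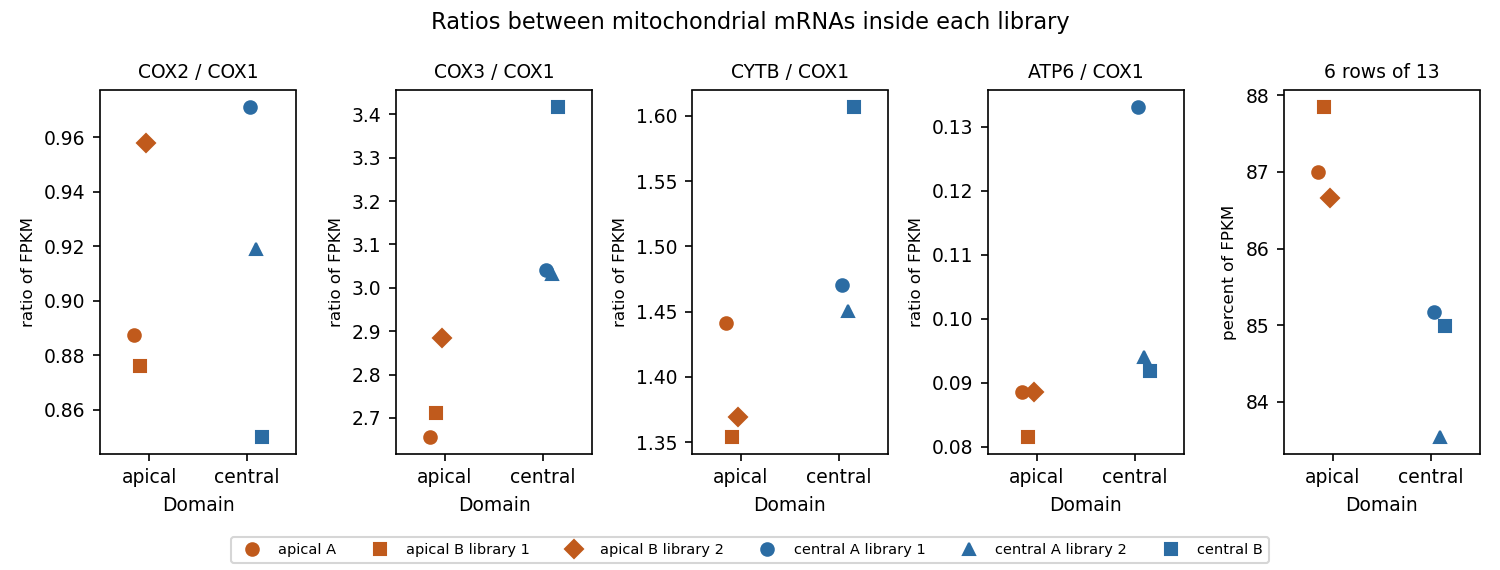
Ratio of the FPKM of COX2, COX3, CYTB and ATP6 to that of COX1, and percent of the FPKM of the 13 mitochondrial mRNAs held by the 6 rows (y axes, which do not start at 0), with 1 point per library, apical left and central right. The COX3 ratios lie between 2.66 and 2.88 in apical libraries and between 3.03 and 3.42 in central ones, and the shares of the 6 rows between 86.7% and 87.8% against 83.5% and 85.2%.

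Complexes III, IV and V also contain subunits encoded in the nucleus. Of 8 rows named for nuclear subunits of complex III or cytochrome c, 0 were high enough to be tested and 4 were listed at 0 in all libraries. The highest of them, uqcr10, had an apical mean of 0.650 FPKM and a central mean of 0.155 FPKM. For complex IV 2 of 15 rows were tested, cox6a1 with an apical mean of 2.53 FPKM and a central mean of 2.61 FPKM, and ndufa4 with an apical mean of 0.0559 FPKM and a central mean of 3.08 FPKM (log2 difference -1.83, adjusted p = 0.465 from limma). For complex V 1 of 15 rows was tested, atp5f1b, the catalytic beta subunit, with an apical mean of 9.80 FPKM and a central mean of 12.0 FPKM. None of these 3 tested rows passed limma's adjusted threshold. The median over the 15 complex IV rows was 0.00980 FPKM and over the 15 complex V rows 0.00877 FPKM, whereas the lowest library value of COX1 and COX2 was 1471 FPKM. The 6 mitochondrial rows held 22.6% to 39.3% of the summed FPKM of all rows in a library, but 0.910% to 1.36% of its mapped fragments. Whether the reads of these nuclear rows come from the genes of that name is uncertain. Their levels are therefore not read as gene expression beside that of COX1 and COX2.

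Among rows named for factors that assemble these complexes or express the mitochondrial genome, 6 of 43 were tested, 0 passed in either direction, and their median log2 difference was 0.04, against 0.00015 over all tested rows. The 3 highest were coa6 and cox10, which serve the assembly of complex IV, and cox15, which takes part in making its heme. Their apical means were 12.3, 4.24 and 2.31 FPKM and their central means 12.9, 3.88 and 3.97 FPKM.

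The 6 ionocyte rows summed to 16.3 to 17.0 FPKM in apical libraries and to 19.4 to 21.2 FPKM in central libraries. These ranges did not overlap, with the apical one below, as for 13.9% of the tested rows taken singly. The sums are carried by 3 rows, since cftr overlapped between the domains, at 0.274 to 0.369 FPKM in apical libraries against 0.225 to 0.339 FPKM in central ones. The 3 others read, atp1b3a, foxi1 and slc9a3.2, were each lower in every apical library than in any central one. None of these 3 passed limma's adjusted threshold, with log2 differences of -0.18, -0.23 and -0.30. Their part in the shares and ratios above was not tested. Summed rows of erythrocytes, pavement cells, pillar and endothelial cells, cartilage and skeletal muscle overlapped between the domains.

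By their shift over the 6 libraries, the rows most like the mean of the 5 mRNAs were those named gpr61, dcaf12 and cldn11a and 2 unnamed rows, ENSORLG00000016122 and ENSORLG00000015087. Their root-mean-square distance from that mean was 0.062 to 0.079 on the log2 scale, against a median of 0.23 over 2984 rows. CYTB, COX1, COX2, COX3 and ATP6, which make up the mean, were at 0.069, 0.074, 0.076, 0.087 and 0.16. The complex I mRNAs ND2, ND3, ND4 and ND1 were as near to that mean as ATP6, at 0.14 to 0.16. ND5, ND6 and ND4L were farther from it, at 0.20, 0.22 and 0.43. With only 6 libraries of 4 RNA samples, such likeness is a description.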

How the data were processed

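Poly(A)-selected RNA of both domains was sequenced as single-end reads, which the authors aligned with HISAT2 to oryLat2. The deposited FPKM and their 95% intervals come from Cufflinks 2.2.1, as per the labels. The HISAT2 version and the gene annotation's release were not given in the sources used here. Of the deposited Cuffdiff table only the authors' domain mean FPKM were used, since its fold changes, test statistics, p-values and q-values are the authors' own comparison.

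Fragments behind a value were computed as the square of the FPKM over its standard deviation (the upper interval arm over 2), for rows that overlap no other. Mapped fragments and fragment length came from a fit over the 8 mitochondrial rows that overlap no other and have 600 bp or more, met within 2.55%. That fit then gave the fragments of each mitochondrial mRNA, ATP6 included, from its FPKM and length. Those of ATP8, a row shorter than the fragment length subtracted in central A, come from its interval. They are rough, because ATP8 overlaps ATP6. The interval of ATP6 is wider than its fragments alone give. It gave 1273 fragments against 2789 by length in apical A, and 1896 against 9691 in library 2 of central A. The fragments of ATP8 may be too low to a like degree, which was not tested. PCR copies are not independent molecules, so the other intervals cover counting error only.

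FPKM were divided by median-of-ratios factors (0.975 to 1.03, over 2342 rows), averaged per RNA sample as log2(FPKM + 1), and compared with limma 3.58.1 (R 4.3.3, eBayes with a trend, Benjamini-Hochberg over the 2984 rows with a sum of the domain means of 2 FPKM or more, threshold 0.05). This understates changes of low rows. The code was tested on simulated data. Ratios were compared with exact permutation tests (scipy 1.17.1, Python 3.11.15). Named are the 6 rows, the complex I rows, the 6 ionocyte rows, at most the 3 most abundant members of each other list, and the 5 rows with the most similar profile. Members and lists were chosen with earlier results of these data known. Alternatives were other pseudocounts, minimums, scalings, library choices, a replicate block, left-out RNA samples, robust eBayes and fragments per kb. Added after the data were seen was a fit with only the libraries of the longer subtracted fragment length. With single-end reads that length is the one Cufflinks used, not one measured in the library.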

Additional observations from a re-analysis of the deposited data

How the results depend on the processing

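Over 19 alternatives, limma called 0 of the mRNAs in each, with adjusted p for the 5 tested mRNAs from 0.616 to 0.9999. Few rows of any kind passed, with 2 of 17465 under no minimum and 28 of 2984 with 6 independent libraries. That 0 of the mRNAs were called is therefore what most rows gave. COX1 stayed above 0 in 19 of 19 (log2 difference 0.021 to 0.49), CYTB and COX2 in 18, COX3 and ATP6 in 13. Among the 19, other minimums, the replicate block and robust eBayes cannot change these log2 differences. Other pseudocounts hardly move them at these levels. These counts therefore overstate how far the directions were put to the test. COX3 turned to -0.0082 with FPKM as deposited, -0.056 when scaled to the 13 mitochondrial mRNAs, -0.0039 with 6 independent libraries and -0.035 with library 2 where there are 2. ATP6 turned to -0.039 when scaled to the 13 mRNAs, -0.085 with 6 independent libraries, -0.00067 with duplicateCorrelation and -0.056 with library 1 alone. The cause was not tested. Leaving out each RNA sample in turn gave -0.14 to 0.16 for COX3, -0.039 to 0.29 for CYTB, 0.021 to 0.49 for COX1, -0.046 to 0.57 for COX2, -0.34 to 0.40 for ATP6 and -0.067 to 0.085 for the log2 ratio of COX2 to COX1. The ratios to COX1 of COX3 (-0.33 to -0.16), CYTB (-0.20 to -0.06) and ATP6 (-0.37 to -0.08) and the share of the 6 rows (2.13 to 2.77 percentage points) kept their direction. Leaving out an RNA sample could not have turned them, because their apical and central libraries did not overlap in FPKM. With quantile normalization COX3 had a log2 difference of 0.72 (unadjusted p = 0.0493, adjusted p = 0.616 from limma). With only the 4 libraries of the longer subtracted fragment length, library 2 of apical B is the sole apical library. There COX2 had 0.43, COX1 0.33, COX3 and CYTB 0.17 and ATP6 0.14. The letters A and B do not show a pairing (r = 0.0511 across rows), but with only 2 RNA samples per domain this cannot exclude one. A replicate block cannot change the log2 differences in this balanced layout, so that they were the same says nothing about pairing. With the block there were 0 calls among the 6 rows. ATP8 was tested only with no minimum, where its fitted log2 difference was -0.79 (adjusted p = 0.846 from limma). This rests on 1.31 and 0.494 fragments by the rough estimate from its intervals, and gives no fold.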

Other observations

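The deposited comparison table, in which the authors' Cuffdiff means stand for each domain, shows another proportion between these mRNAs. There the apical mean of COX3 was 124580 FPKM and the central mean 119390 FPKM, and those of CYTB were 50141 FPKM (apical) and 47907 FPKM (central). COX1, by contrast, had an apical mean of 55.2 FPKM and a central mean of 47.6 FPKM. For COX2 these means were 64.3 FPKM (apical) and 51.8 FPKM (central), for ATP6 27.5 FPKM (apical) and 22.0 FPKM (central), and ATP8 was listed at 0 in both. Over 2706 rows at 1 FPKM or more in both domains, the ratio of these means to the library means had a median of 17.2 in either domain. In the apical and the central domain COX3 is at 18.9 and 17.9 times its library mean and CYTB at 14.8 and 15.1 times, while COX1 is at 0.0229 and 0.0228, COX2 at 0.0295 and 0.0275 and ATP6 at 0.132 and 0.102 of theirs. COX3 over COX1 is thus 2258 in the apical and 2508 in the central domain in that table, against 2.73 in the apical and 3.19 in the central domain from the library means. Why COX1, COX2 and ATP6 leave the common scale there was not tested, and levels between subunits were read from the libraries only.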
